A study of Mus musculus with 93 samples.

Results

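The T-cell receptor complex and its costimulatory partners were followed in mouse blood through 9 genes: Cd3d, Cd3e, Cd3g, Cd247, Lck, Zap70, Lat, Cd28 and Cd2. They were chosen by name, though with earlier results of these data known. Of these 9 genes, 8 had a probe set with a single gene symbol, and together they had 14 such probe sets among the 18193 genes that could be named. Lck is not reported here, because no probe set is named for it in the annotation used. Each gene was read by its brightest probe set, judged by the mean of the 93 arrays, and its other probe sets are given beside it.

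Blood leukocytes came from female mice on an FVB/NJ background. Tumor-bearing mice carried a MMTV/c-MYC transgene, in which the hormone-responsive promoter of the mouse mammary tumor virus drives c-MYC or a more stable mutant of it, and had advanced mammary tumors. Controls were wild-type, tumor-free females of the same age and parity, kept in the same continuous breeding program. Neither group received a treatment, and the labels give an average age of 431 days before euthanization. The labels divide the arrays into cohorts, training with 14 controls and 32 tumors and validation with 14 controls and 33 tumors. The tumor arrays were read as 2 sets by the number in their label. The 52 late-numbered arrays were training tumors 6 to 32 and validation tumors 9 to 33, and the 13 early-numbered arrays were training tumors 1 to 5 and validation tumors 1 to 8. The labels do not say what this numbering stands for, and they mark no cut between the sets.

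An αβ T cell recognizes antigen through a receptor whose variable chains cannot signal by themselves. The γ, δ and ε chains of CD3 (Cd3g, Cd3d and Cd3e) and the ζ chain (Cd247) carry the signalling motifs, which the kinase Lck phosphorylates. The kinase ZAP-70 (Zap70) docks on the phosphorylated motifs and phosphorylates the membrane adaptor LAT (Lat), on which the downstream signalling complex is built. CD28 gives the classical costimulatory signal when it meets CD80 or CD86, and CD2 strengthens adhesion and signalling through CD48 in the mouse. In blood T cells hold these transcripts, while NK cells, among others, also hold ζ chain, ZAP-70, LAT and CD2. In a mixed leukocyte sample, fewer cells of any type that holds these transcripts and less RNA of these genes per cell cannot be told apart.

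The γ, δ and ε genes of CD3 are neighbours on mouse chromosome 9, with Cd3g and Cd3d facing away from each other on opposite strands. Their promoters are shown because the readings of these neighbours moved apart between the sets of tumor arrays, as described with the values. Each of these genes was read by a single probe set, and a part of the promoters in those readings was not tested. RefSeq gives them in build GRCm38.p6 as 300 bases, 250 before and 50 after the start of transcription, at chr9:44980382-44980681 on the minus strand for Cd3g, chr9:44981536-44981835 on the plus strand for Cd3d and chr9:45009562-45009861 on the minus strand for Cd3e. Capitals mark 4 motifs searched on both strands: the ETS-type motif AGGAAG, the RUNX-type motif TGTGGT, the TCF/LEF-type motif CTTTGA and the GATA-type motif AGATAA.
Cd3g: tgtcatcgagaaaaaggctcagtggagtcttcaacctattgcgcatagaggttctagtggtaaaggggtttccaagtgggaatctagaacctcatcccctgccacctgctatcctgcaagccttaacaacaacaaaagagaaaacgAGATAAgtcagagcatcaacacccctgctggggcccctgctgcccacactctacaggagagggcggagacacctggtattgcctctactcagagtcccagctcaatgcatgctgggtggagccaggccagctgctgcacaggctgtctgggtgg
Cd3d: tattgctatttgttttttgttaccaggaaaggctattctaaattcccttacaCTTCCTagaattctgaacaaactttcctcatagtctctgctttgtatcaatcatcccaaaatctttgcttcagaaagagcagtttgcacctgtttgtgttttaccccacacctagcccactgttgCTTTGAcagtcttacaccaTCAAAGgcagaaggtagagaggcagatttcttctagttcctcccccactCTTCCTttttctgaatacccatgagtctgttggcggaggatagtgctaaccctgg
Cd3e: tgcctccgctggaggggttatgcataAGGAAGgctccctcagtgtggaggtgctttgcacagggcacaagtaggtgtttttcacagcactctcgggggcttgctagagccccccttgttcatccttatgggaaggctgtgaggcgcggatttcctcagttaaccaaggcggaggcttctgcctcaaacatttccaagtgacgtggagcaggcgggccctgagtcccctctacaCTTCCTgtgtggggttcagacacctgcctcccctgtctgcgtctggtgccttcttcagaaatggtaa
The Cd3d window held 2 ETS-type and 2 TCF/LEF-type matches, the Cd3e window 2 ETS-type matches and the Cd3g window 1 GATA-type match. Of 32851 mouse promoters of this length, 35.4% held the ETS-type, 16.8% the RUNX-type, 16% the TCF/LEF-type and 11.2% the GATA-type letters, so such matches are frequent. RefSeq promoters were found for 7 of the 9 genes, all except Cd28 and Cd2.

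The sets of arrays differed in their control probe sets. The dap transcript, a bacterial RNA used as a spike-in, had a mean log2 level of 8.25 ± 0.76 (SD, n = 52) in late arrays, 3.09 ± 0.60 (SD, n = 13) in early arrays and 2.82 ± 0.43 (SD, n = 28) in controls. The tumor sets did not overlap in dap (6.47 to 10.5 in late and 2.39 to 4.58 in early arrays), so their division by number is also a division by dap. Whatever else was done differently to arrays with and without this RNA cannot be told apart from the presence of a tumor in the late comparison. The 5′ minus 3′ signal of the actin control, which falls where RNA or its copies are shortened, ran from −2 to −1.2 in early arrays and from −0.9 to −0.5 in controls. It ran from −2.3 to −0.4 in late arrays, of which 2 lay below the lowest control. Array 19 of the validation tumors, a late array, stood apart as the highest of all 93 arrays for every 1 of the 8 genes, and results are given with and without it where it matters. A pair of arrays differed in sex-linked genes: Xist read 9.36 on training tumor 20 against 10.6 or above on the others, and the Y-linked Eif2s3y read 5.06 on validation tumor 2 against 3.26 or below. Without this pair, Cd3g in late arrays was the only call lost among the 8 genes (−0.32, adjusted p = 0.0551). In the listed leukocyte markers, the T-cell genes Cd3d, Cd3e and Cd3g read at 8.94 or above on all arrays, so RNA of these genes was present throughout. They belong to the 8 genes described here, and not every listed T-cell marker was bright. Trat1 had a control mean of 5.265, where the median over all probe sets was 4.79.

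In late arrays, Cd2, Cd28, Cd3e and Cd3g were lower than in controls and Lat was higher. In early arrays all genes but Cd3e were lower, most by about 1 log2 unit. By the brightest probe sets, the tumor sets differed most in Lat, above the controls in late arrays and below them in early ones. Read so, Cd3e was the one gene that was lower in late than in early arrays by the test. Every level given below is an RMA value on the log2 scale, and every difference is a limma estimate with its standard error (SE) and Benjamini-Hochberg adjusted p over 45037 probe sets. A gene is said to be called where this adjusted p was under 0.05.

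**Figure D1:**
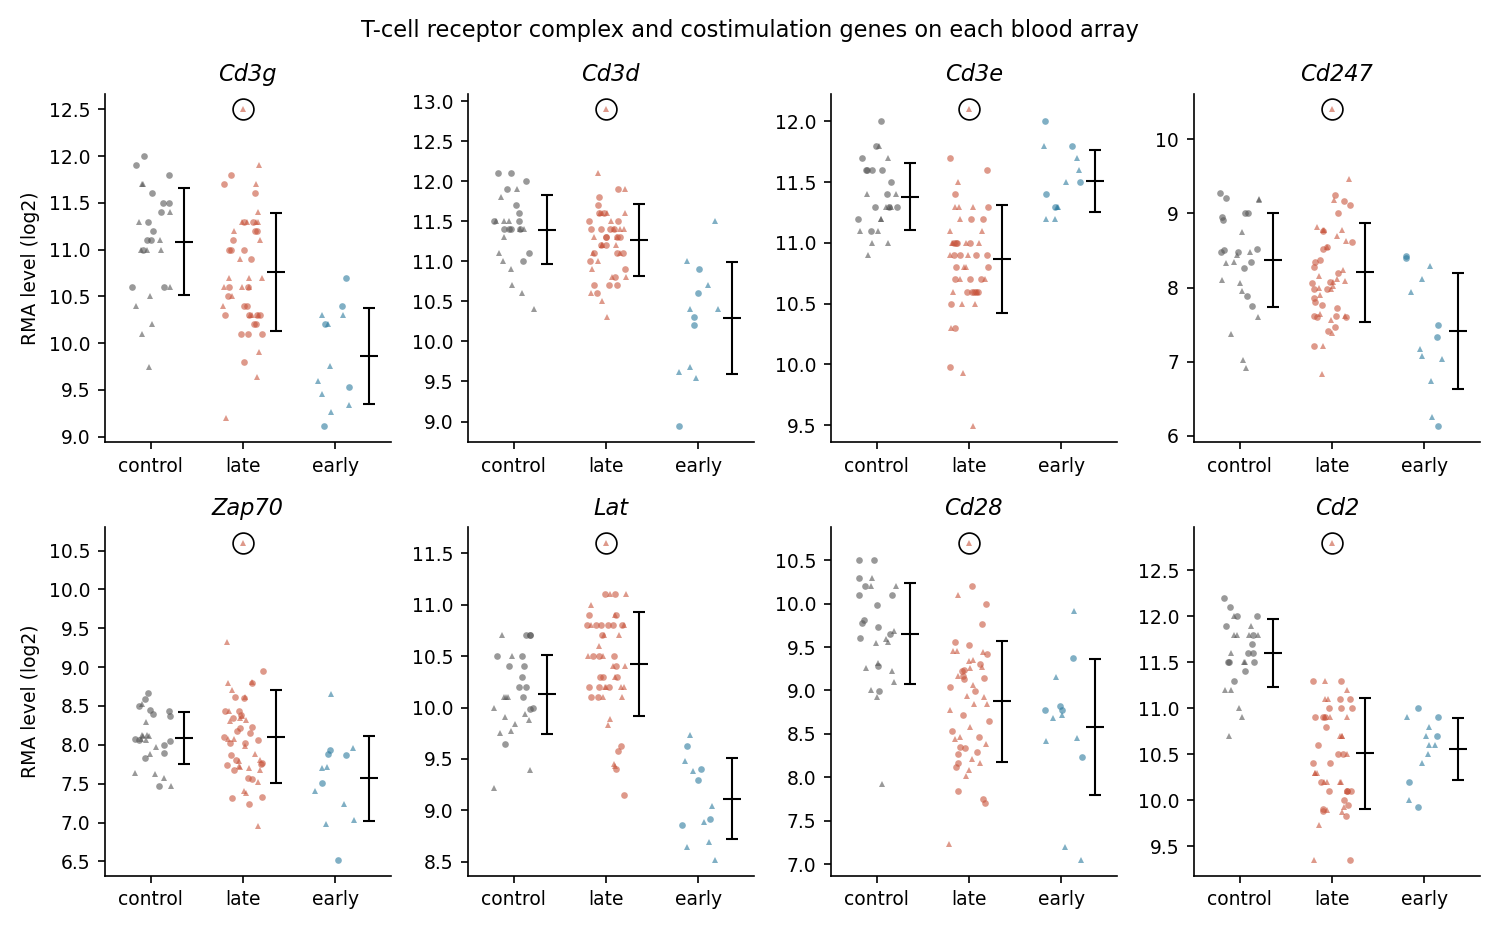
RMA level (log2) of each of the 8 genes on each array, for tumor-free control (n = 28), late tumor (n = 52) and early tumor (n = 13) arrays. Circles are training and triangles validation arrays, bars show mean and SD, and the ring marks validation tumor array 19, which is highest in every panel. Each vertical axis has its own range, and the groups overlap in all 8 panels.

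Cd3d, the δ chain, ranged from 10.4 to 12.1 with a median of 11.4 in controls, from 10.3 to 12.9 with a median of 11.3 in late arrays, and from 8.94 to 11.5 with a median of 10.4 in early arrays. The late arrays covered the whole range of the controls, while 6 of the 13 early arrays lay below the lowest control. Late arrays differed from controls by −0.13 ± 0.11 (SE, adjusted p = 0.357), which did not pass the test, although it did in the training cohort alone (−0.34, adjusted p = 0.0331). The early difference was −1.10 ± 0.16 (adjusted p = 7.26e-09). Late arrays were 0.97 ± 0.15 above early arrays (adjusted p = 1.6e-08).

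Cd3g, the γ chain, ranged from 9.74 to 12 with a median of 11.1 in controls, from 9.2 to 12.5 with a median of 10.65 in late arrays, and from 9.11 to 10.7 with a median of 9.75 in early arrays. All 13 early arrays lay below the control mean and 6 of them below the lowest control, whereas 2 of 52 late arrays did so. The early difference from controls was −1.21 ± 0.20 (SE, adjusted p = 1.34e-07). The late difference was −0.32 ± 0.14 (adjusted p = 0.0466), just inside the threshold. It was lost in the validation cohort alone (−0.02, adjusted p = 0.953) and without the 2 late arrays low in the actin difference (−0.30, adjusted p = 0.0692).

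Cd3e, the ε chain, pairs with the other chains and is needed for the receptor to reach the surface. It was called lower in late arrays, and unlike Cd3d and Cd3g it was not called in early arrays. It ranged from 10.9 to 12 with a median of 11.3 in controls, from 9.49 to 12.1 with a median of 10.9 in late arrays, and from 11.2 to 12 with a median of 11.5 in early arrays. Of the late arrays, 24 of 52 lay below the lowest control, and 0 of 13 early arrays did. The late difference was −0.52 ± 0.09 (SE, adjusted p = 3.3e-07). The early difference was 0.14 with a 95% interval from −0.11 to 0.38 (adjusted p = 0.341). Late arrays were lower than early arrays by −0.65 ± 0.12 (adjusted p = 6.49e-07).

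The δ and ε chains parted within single arrays. Cd3e minus Cd3d on the same array ran from −0.6 to 0.6 in controls, from −1.42 to 0.4 in late arrays and from 0.1 to 2.36 in early arrays. In 12 of 13 early arrays this difference was above the highest control, and in 7 of 52 late arrays it was below the lowest. Against the γ chain the pattern was alike in early arrays, where Cd3e minus Cd3g exceeded the highest control on 12 of 13 arrays, while 0 of 52 late arrays left the range of the controls. These pairs were chosen after their values were seen, so they are a description without a test.

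**Figure D2:**
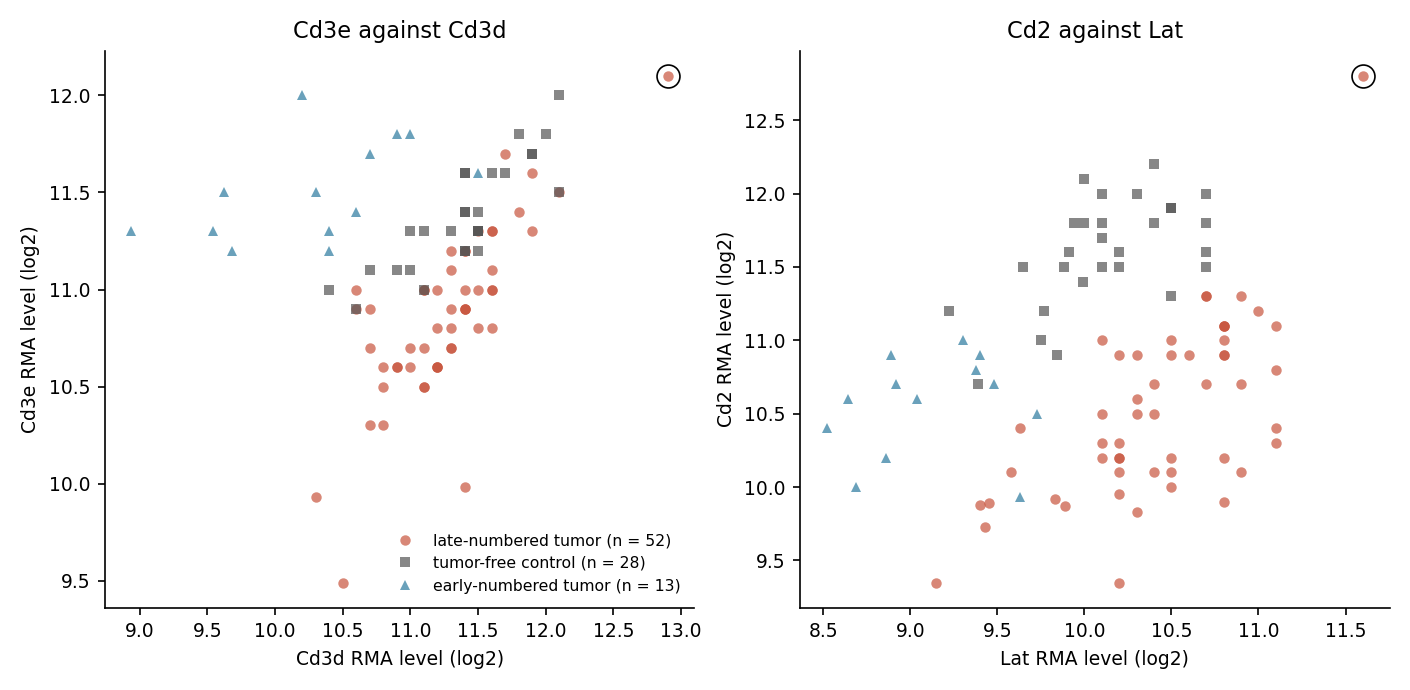
RMA level (log2) of Cd3e against Cd3d (left) and of Cd2 against Lat (right), 1 point per array, with controls as squares, late tumor arrays as circles, early tumor arrays as triangles and validation tumor array 19 ringed. Early arrays lie above the band of controls on the left, and late arrays lie below it on the right, where 50 of 52 had a smaller Cd2 minus Lat difference than any control.

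Cd247, the ζ chain, ranged from 6.92 to 9.27 with a median of 8.46 in controls, from 6.84 to 10.4 with a median of 8.08 in late arrays, and from 6.13 to 8.42 with a median of 7.33 in early arrays. The groups overlapped widely, with 1 late and 3 early arrays below the lowest control. The late difference of −0.16 ± 0.15 (SE, adjusted p = 0.424) did not pass the test except in the training cohort alone (−0.47, adjusted p = 0.045) and over the mean of its probe sets, and the early difference was −0.94 ± 0.22 (adjusted p = 0.000168).

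Zap70, the kinase that binds the phosphorylated CD3 and ζ chains, ranged from 7.47 to 8.67 with a median of 8.075 in controls, from 6.96 to 10.6 with a median of 8.065 in late arrays, and from 6.52 to 8.66 with a median of 7.7 in early arrays. Late arrays spread to both sides of the controls, 6 below the lowest and 7 above the highest. Their mean difference was 0.02 with a 95% interval from −0.22 to 0.26 (adjusted p = 0.915). The early difference was −0.52 ± 0.18 (SE, adjusted p = 0.00815), the smallest of the called early differences by the brightest probe sets. It did not pass the test in the validation cohort alone (−0.39, adjusted p = 0.234) or against the validation controls alone (−0.40, adjusted p = 0.0814).

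Lat, the adaptor downstream of ZAP-70, ranged from 9.22 to 10.7 with a median of 10.1 in controls, from 9.15 to 11.6 with a median of 10.45 in late arrays, and from 8.52 to 9.73 with a median of 9.04 in early arrays. The tumor sets lay on opposite sides of the controls: 17 of 52 late arrays were above the highest control and 7 of 13 early arrays below the lowest. Lat was 0.29 ± 0.11 (SE, adjusted p = 0.018) higher in late arrays and lower by −1.0 ± 0.15 (adjusted p = 2.31e-08) in early arrays. The direct difference between late and early arrays was 1.29 ± 0.14 (adjusted p = 9.54e-14), the widest of the 8 genes by their brightest probe sets. The late rise was 0.50 (adjusted p = 0.00872) in the validation cohort and 0.09 (adjusted p = 0.65) in the training cohort. It was 0.11 (adjusted p = 0.55) against the training controls alone.

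Cd28, the costimulatory receptor, ranged from 7.92 to 10.5 with a median of 9.665 in controls, from 7.23 to 10.7 with a median of 8.93 in late arrays, and from 7.05 to 9.92 with a median of 8.72 in early arrays. It was below the control mean on 47 of 52 late and 12 of 13 early arrays. The differences from controls were −0.79 ± 0.15 (SE, adjusted p = 8.97e-06) in late and −1.06 ± 0.22 (adjusted p = 2.53e-05) in early arrays. The tumor sets differed from each other by 0.27 with a 95% interval from −0.14 to 0.68 (adjusted p = 0.235). In the validation cohort alone the late difference of −0.52 did not pass the test (adjusted p = 0.0949).

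Cd2, the adhesion receptor, had the largest late difference of the 8 genes. It ranged from 10.7 to 12.2 with a median of 11.6 in controls, from 9.35 to 12.8 with a median of 10.45 in late arrays, and from 9.93 to 11 with a median of 10.6 in early arrays. Of the late arrays, 51 of 52 were below the control mean and 30 below the lowest control, the exception above the mean being validation tumor array 19. All 13 early arrays were below the control mean. The differences were −1.09 ± 0.12 (SE, adjusted p = 1.45e-13) in late and −1.04 ± 0.17 (adjusted p = 1.41e-07) in early arrays. The tumor sets differed from each other by −0.05 with a 95% interval from −0.36 to 0.26 (adjusted p = 0.782).

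Cd2 fell in late arrays while Lat rose, so their difference within an array set these arrays apart. Cd2 minus Lat ran from 0.8 to 2.1 in controls, from −0.9 to 1.2 in late arrays and from 0.3 to 2.01 in early arrays, and 50 of 52 late arrays were below the lowest control against 2 of 13 early arrays. Cd2 minus Cd3d behaved alike, with 47 of 52 late arrays below the lowest control. Late arrays thus kept Cd3d near the control level with less Cd2, and early arrays were lower in both. These pairs too were chosen after their values were seen and were not tested.

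Counted together, 4 of the 8 genes were called lower and 1 higher in late arrays, where 20.5% of the other 18185 genes were called lower and 25.6% higher. In early arrays 7 were called lower and 0 higher, where 28.9% of the other genes were called lower and 34.4% higher. Between the tumor sets, 1 gene was lower and 5 were higher in late than in early arrays, against 38.3% and 31.5% of the other genes. The groups overlapped for all 8 genes, and among all genes 0.330% separated late from control, 1.71% early from control and 2.37% late from early arrays. Both comparisons with controls use the same control arrays. With the first 3 principal components of the control probe sets as covariates, 0 of the 8 genes were called in late arrays. Cd2 stood at −0.58 (adjusted p = 0.396) and Cd3e at 0.010 (adjusted p = 0.988). Their SE grew from 0.12 to 0.45 and from 0.09 to 0.34. Late calls over all 45037 probe sets fell as well, from 8943 lower and 10785 higher to 3244 and 5010. In early arrays 7 of the 8 were again called lower, where 9327 of all probe sets were lower and 12429 higher.

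The median difference of the 8 genes from controls was −0.24 in late and −1.02 in early arrays, beside 0.04 and 0.07 over all genes. Brighter genes leaned downward in early arrays. Among the 10604 genes whose mean level exceeded that of the median probe set, to which the 8 belong, the median early difference was −0.24, and 46.9% were called lower and 16.3% higher. The same genes had a median late difference of 0.02, with 31.8% called lower and 34.2% higher. Called shares this large give little weight to a bare count of 8 genes, and the sizes of the differences carry more of the description.

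**Figure D3:**
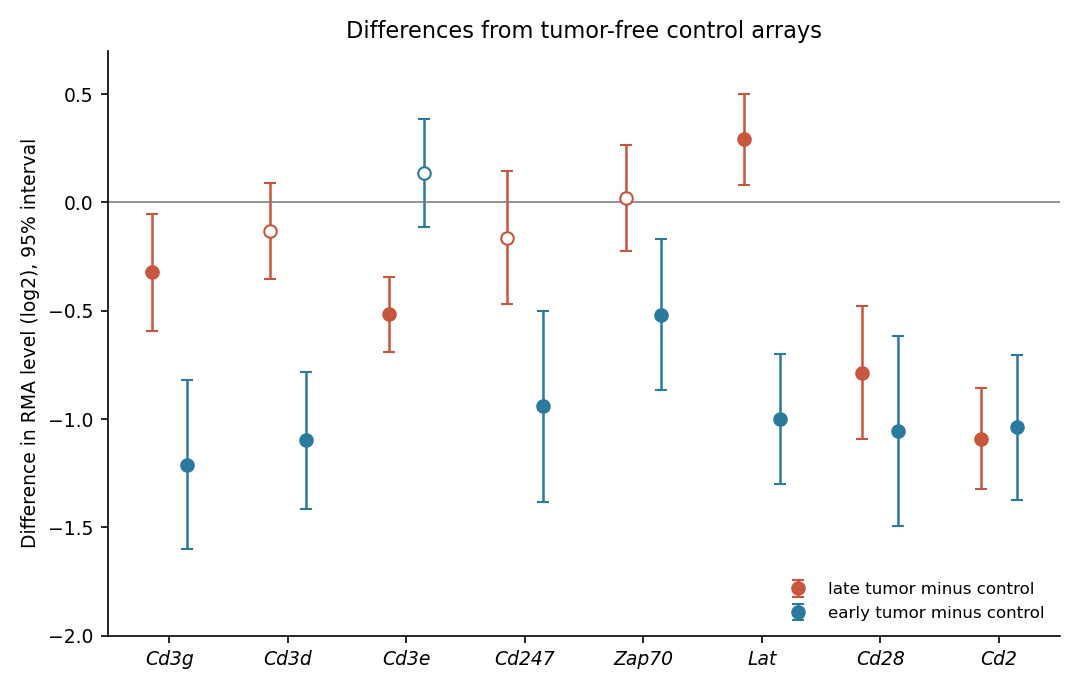
Difference from control arrays (log2, limma estimate with its 95% interval) of the 8 genes in late (n = 52) and early (n = 13) tumor arrays, against the same 28 controls. Filled points were called and open points were not. Cd2 and Cd28 lie below 0 in both sets, Cd3e is called in late arrays alone and Lat lies on opposite sides of 0.

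Per array, low readings were seldom shared by all genes in late arrays. Of 52 late arrays, 17 had 0 of the 8 genes below the lowest control, 15 had 1, 12 had 2 and 8 had 3 or more. Of 13 early arrays, 2 had 0, and 7 had 3 or more. With the control mean as the mark, 10 of 52 late arrays and 5 of 13 early arrays were low in all 8 genes, as were 5 of 28 controls, and 12 of 13 early arrays were low in at least 6.

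Genes with several probe sets did not read alike. Cd247 had 4. In late arrays the probe set 1426079_at was lower by −0.99 ± 0.15 (SE, adjusted p = 2.59e-08), below the control mean on 52 of 52 arrays, though the brightest probe set did not pass the test. In early arrays this probe set differed by −0.09 (adjusted p = 0.737), while 1452539_a_at was called lower (−0.81 ± 0.22, adjusted p = 0.00114) along with the brightest. The fourth, 1420716_at, was called in neither set (−0.14 in late and 0.32 in early arrays, adjusted p = 0.312 and 0.0588). Between the tumor sets, 1426079_at (−0.90 ± 0.20 SE, adjusted p = 5.41e-05) and 1420716_at (−0.46 ± 0.14, adjusted p = 0.00303) were lower in late than in early arrays. The brightest (0.78 ± 0.21, adjusted p = 0.000587) and 1452539_a_at (0.58 ± 0.21, adjusted p = 0.0108) were higher. The mean of all 4 was called lower by the same size in late (−0.38, adjusted p = 0.00245) and early arrays (−0.38, adjusted p = 0.0294), where the brightest alone had −0.16 and −0.94.

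Zap70 had 3 probe sets. The second, 1422701_at, was lower by −1.45 ± 0.22 (SE, adjusted p = 1.56e-08) in early arrays, where it ranged from 4.11 to 6.49 against 6.01 to 7.99 in controls, and differed by 0.15 (adjusted p = 0.451) in late arrays. By 1422701_at, late arrays were 1.60 ± 0.20 above early arrays (adjusted p = 2.71e-11), wider than the difference of Lat. The dimmest, 1439749_at, was called in neither set. For Cd28, the second probe set 1417597_at was lower in early arrays (−0.90 ± 0.22, adjusted p = 0.000259) like the brightest, and its late difference of −0.19 ± 0.15 (adjusted p = 0.339) did not pass the test. By this probe set late arrays were 0.71 ± 0.20 above early arrays (adjusted p = 0.0014), and the mean of both was called higher as well (0.49, adjusted p = 0.0188), unlike the brightest alone. Which transcript forms or ends each probe set reads is not given in the sources used here.

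**Figure D4:**
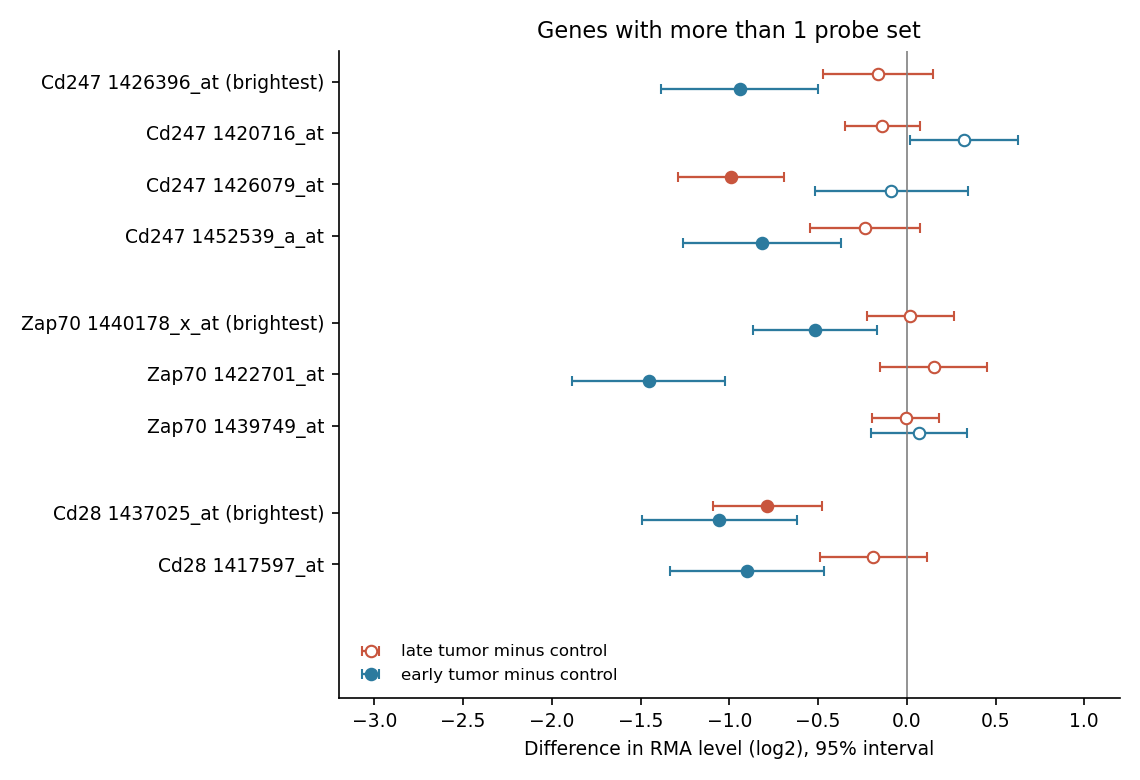
Difference from control arrays (log2, limma estimate with its 95% interval) for every probe set of Cd247, Zap70 and Cd28, in late and early tumor arrays, with filled points called and open points not. Of the 4 probe sets of Cd247, 1 was called lower in late arrays, 2 others in early arrays and 1 in neither.

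The genes rose and fell together from array to array. After removing cohort means, Pearson r over the 28 pairs of genes had a median of 0.76 in controls, 0.77 in late arrays and 0.57 in early arrays. With Cd3d as the reference, r for the other 7 genes ran from 0.63 (Zap70) to 0.95 (Cd3g) in controls, with Spearman rho from 0.60 to 0.93. In late arrays r ran from 0.59 (Lat) to 0.89 (Cd3g), with rho from 0.56 to 0.86. All 14 of these relations passed a two-sided permutation test with 100000 resamples, adjusted over 21 relations, and did so again without the 2 arrays farthest from the median of Cd3d (r from 0.53 to 0.93). Most of their p-values were 1e-05, the smallest these resamples can give.

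In early arrays 3 of 7 relations passed: Cd247 (r = 0.74, rho = 0.67, adjusted permutation p = 0.00543), Cd3g (r = 0.72, rho = 0.66, adjusted permutation p = 0.00799) and Cd28 (r = 0.64, rho = 0.76, adjusted permutation p = 0.022). None of the 3 passed without the 2 arrays farthest from the median of Cd3d, where r was 0.54, 0.55 and 0.47 and the adjusted permutation p 0.116, 0.116 and 0.165, while by Spearman rho on all 13 arrays all 3 passed (adjusted permutation p = 0.0189, 0.0214 and 0.00477). Lat had r = −0.08 with Cd3d in early arrays (rho = −0.04, adjusted permutation p = 0.785) against 0.79 in controls, a difference that was not tested.

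Markers of other leukocytes differed between the same sets. Beside the counts here, 20.5% of the genes other than the 8 were called lower and 25.6% higher in late arrays. In early arrays these shares were 28.9% and 34.4%. Of the T-cell markers, 9 of 14 measured were called lower and 0 higher in late arrays and 11 lower and 0 higher in early arrays, and 3 of the 14 are the CD3 chains themselves. B-cell markers were called lower for 12 of 13 in late and 10 of 13 in early arrays, their mean level running from 8.58 to 10.23 in controls, from 6.30 to 9.83 in late and from 7.36 to 9.52 in early arrays. Neutrophil markers were higher for 9 of 12 in late arrays, with means from 10.81 to 12.77 against 9.86 to 11.84 in controls. Monocyte markers were higher for 6 of 9 in late arrays, with means from 7.34 to 10.37 against 8.45 to 10.04. NK-cell markers were lower for 8 of 11 in early arrays, with means from 6.46 to 7.97 against 6.85 to 8.48, and lower for 2 and higher for 1 in late arrays. Monocyte markers were lower for 3 of 9 in early arrays, a share near that of the other genes. Erythroid markers were higher for 5 of 7 in early arrays, with means of 9.13 ± 0.65 (SD, n = 13) against 8.45 ± 0.56 (SD, n = 28) in controls, and for 1 of 7 in late arrays. The part of these cell types in the differences of the 8 genes was not tested.

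Within late arrays all 8 genes fell where neutrophil markers rose, with r from −0.71 to −0.38 and a median of −0.57, and all passed the permutation test adjusted over 192 relations with 8 measures. They did so without the 2 arrays farthest from the median too (r from −0.70 to −0.41), and by Spearman rho. For the monocyte markers r had a median of −0.51 and all 8 passed. Without the 2 farthest arrays the median was −0.29 and 2 passed, and 4 passed by Spearman rho. With the NK-cell markers r had a median of 0.49 and 7 of 8 passed, with and without those arrays. With the B-cell markers, Cd2 alone passed in late arrays (r = 0.36, rho = 0.60, adjusted permutation p = 0.043). Without the 2 farthest late arrays Cd2 had r = 0.70, and 3 of 8 passed. In controls too Cd2 alone passed with the B-cell markers (r = 0.61, rho = 0.56, adjusted permutation p = 0.00662). Platelet markers were added after the data were seen. In late arrays Lat had r = 0.03 and rho = 0.46 with them (adjusted permutation p of rho = 0.00819). Without the 2 farthest arrays its r was 0.57 (adjusted permutation p = 0.00064). Cd3d passed by r on all late arrays (−0.45, adjusted permutation p = 0.043) but not by rho (−0.05). In early arrays Lat had r = 0.63 and did not pass (rho = 0.66, adjusted permutation p = 0.0866). With the actin difference, r had a median of −0.02 in late arrays and −0.34 in early arrays (0.20 without the 2 farthest arrays), and 0 of 8 passed in either set. In controls its median was 0.42 and 2 genes passed, Cd247 (r = 0.50, rho = 0.40, adjusted permutation p = 0.0364) and Lat (r = 0.49, rho = 0.49, adjusted permutation p = 0.0432), with 0 passing without the 2 farthest arrays. With the dap spike-in, 0 of 8 genes passed by Pearson r in any set. In late arrays Lat (rho = 0.38, adjusted permutation p = 0.0393) and Zap70 (rho = 0.37, adjusted permutation p = 0.0455) passed by rho. Both also passed without the 2 farthest arrays (r = 0.56 and 0.54, adjusted permutation p = 0.000698 and 0.00096). The part of these measures in the differences of the 8 genes was not tested.

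The level of the 18S ribosomal RNA control was higher in both tumor sets, at 10.64 ± 0.51 (SD, n = 52) in late and 10.79 ± 0.64 (SD, n = 13) in early arrays against 9.87 ± 0.36 (SD, n = 28) in controls. In early arrays Cd3d fell where it rose (r = −0.83, rho = −0.78, adjusted permutation p = 0.0064), with and without the 2 farthest arrays (r = −0.83, adjusted permutation p = 0.0143), and this was the only one of the 64 early relations to pass by Pearson r. The median over the 8 genes was −0.42 in early arrays. In late arrays Cd3d had r = −0.41 (rho = −0.25, adjusted permutation p = 0.0224), which did not pass by rho or without the 2 farthest arrays. The part of the 18S control in the differences of the 8 genes was not tested.

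When the actin difference was entered as a covariate, the early difference was called lower for all 7 genes again, from −1.05 for Cd3d to −0.85 for Cd247, and Cd3e remained not called (0.08, adjusted p = 0.747). The early difference of Zap70 moved from −0.52 to −0.98. Early and control arrays do not overlap in the actin difference, so this fit extends beyond the controls.

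The genes whose array-to-array pattern was most like that of the 8 were found over 93 arrays after removing the mean of each label group. By mean Pearson r with the 8 genes, among the other 10596 of these brighter genes, they were Skap1 (0.84), Cd96 (0.83), Trav9d-3 (0.82), Trbv1 (0.82), Themis (0.82), Cd27 (0.81), Sh2d1a (0.81) and Fam189b (0.81). Skap1, Themis and Sh2d1a encode adaptors of T-cell signalling, Cd96 and Cd27 are T- and NK-cell surface receptors, and the probe sets named Trav9d-3 and Trbv1 read variable segments of the receptor's own α and β chains, where related segments can share probes. All 8 were called lower in early arrays, from −0.65 (Cd96) to −1.75 (Sh2d1a). Of the brighter genes from which they were drawn, 46.9% were called lower in early and 31.8% in late arrays. In late arrays Themis (−0.48 ± 0.15 SE, adjusted p = 0.00591) and Cd27 (−0.44 ± 0.15, adjusted p = 0.0126) were called lower and the other 6 were not called. This likeness is a description, and the points share their arrays.

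The wider pathway was read from lists of genes around the receptor. Beside the list counts, 20.5% of the genes other than the 8 were called lower and 25.6% higher in late arrays. In early arrays 28.9% were called lower and 34.4% higher. Among the brighter genes the lower shares were 31.8% in late and 46.9% in early arrays, so several list counts lie near such shares. Of the receptor chain genes listed, Tcra was the one with a named probe set, with a difference of 0.05 (adjusted p = 0.537) in late and 0.37 ± 0.09 (SE, adjusted p = 0.000371) in early arrays. The variable-segment probe sets went the other way in early arrays, Trav9d-3 by −1.16 ± 0.18 (adjusted p = 2.21e-08) and Trbv1 by −0.86 ± 0.18 (adjusted p = 2.56e-05). Of 12 coreceptors and receptor-associated surface proteins, 4 were called lower and 0 higher in late arrays (median −0.07), and 8 lower and 1 higher in early arrays (median −1.01). The CD8 α chain Cd8a was lower in late arrays (−0.91 ± 0.13 SE, adjusted p = 4.33e-09), whereas its partner Cd8b1 had −0.25 (adjusted p = 0.197). In early arrays Cd8b1 was lower (−1.35 ± 0.22, adjusted p = 2.31e-07) and Cd8a had −0.38 (adjusted p = 0.0714). The helper-cell coreceptor Cd4 was lower in early arrays (−1.02 ± 0.27, adjusted p = 0.000775) and had −0.08 (adjusted p = 0.774) in late ones. The CD45 phosphatase Ptprc was higher by 0.50 in early arrays, its partner Ptprcap lower by −0.92 in late and −0.45 in early arrays, and Cd7 lower by −1.0 in early arrays, all called by limma.

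Of 11 proximal kinases and phosphatases, 6 were called lower and 3 higher in late arrays and 6 lower and 1 higher in early arrays. Csk, the kinase that holds Lck inactive, was higher in late (0.63 ± 0.06 SE, adjusted p = 2.62e-17) and lower in early arrays (−0.71 ± 0.08, adjusted p = 1.61e-12). The phosphatase SHP-1 (Ptpn6) did the same, with 0.48 and −1.05. Ubash3a, a T-cell inhibitor of receptor signalling, was lower in both (−1.27 in late, −0.75 in early arrays), as was the kinase Tec (−0.16 and −0.88). Csk and Ptpn6 are used by myeloid cells as well, as are Vav1, Lcp2 and Pstpip1 among the adaptors.

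Of 19 adaptors around LAT, 7 were called lower and 5 higher in late arrays and 13 lower and 2 higher in early arrays (medians −0.10 and −0.59). Vav1 rose by 0.94 ± 0.08 (SE), Pstpip1 by 0.91 ± 0.09 and Lcp2, the SLP-76 adaptor that LAT gathers, by 0.90 ± 0.07 in late arrays. All 3 were lower in early arrays (−0.28, −0.96 and −0.37), although Vav1 lost its early call under several settings. Grap, an adaptor of the GRB2 family, had the widest early difference of the named genes, −2.31 ± 0.15 (adjusted p = 2.06e-24), and −0.06 (adjusted p = 0.689) in late arrays.

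Of 16 downstream genes, 8 were called lower and 5 higher in late arrays and 11 lower and 2 higher in early arrays. The calcium-dependent phosphatase subunits went apart in late arrays, with Ppp3ca higher by 0.42 and Ppp3cb lower by −0.61, and their target factor Nfatc3 was lower by −0.80 ± 0.05 (SE, adjusted p = 2.53e-25). Over all of its probe sets Nfatc3 averaged −0.11 (adjusted p = 0.121). Dgkz, which removes the second messenger diacylglycerol, was lower in early arrays (−1.54 ± 0.12, adjusted p = 1.49e-19) and had 0.09 (adjusted p = 0.424) in late ones.

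Of 14 costimulation receptors, 6 were called lower and 3 higher in late and 9 lower and 1 higher in early arrays. Btla, an inhibitory receptor, was lower by −1.16 ± 0.14 (SE) in late and −1.27 ± 0.20 in early arrays. The integrin chain Itgal and the receptor GITR (Tnfrsf18) were higher in late (0.41 and 0.60) and lower in early arrays (−0.50 and −0.78). Of 11 costimulation ligands, 1 was called lower in late arrays, Cd40 (−0.64 ± 0.14, adjusted p = 6.3e-05), and 6 were lower in early arrays with 0 higher. The CD2 ligand Cd48 had 0.17 (adjusted p = 0.216) in late and −1.30 ± 0.15 (adjusted p = 1.31e-11) in early arrays, and the CD28 ligand Cd86 had 0.25 (adjusted p = 0.144) and −0.63 ± 0.20 (adjusted p = 0.00491).

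**Figure D5:**
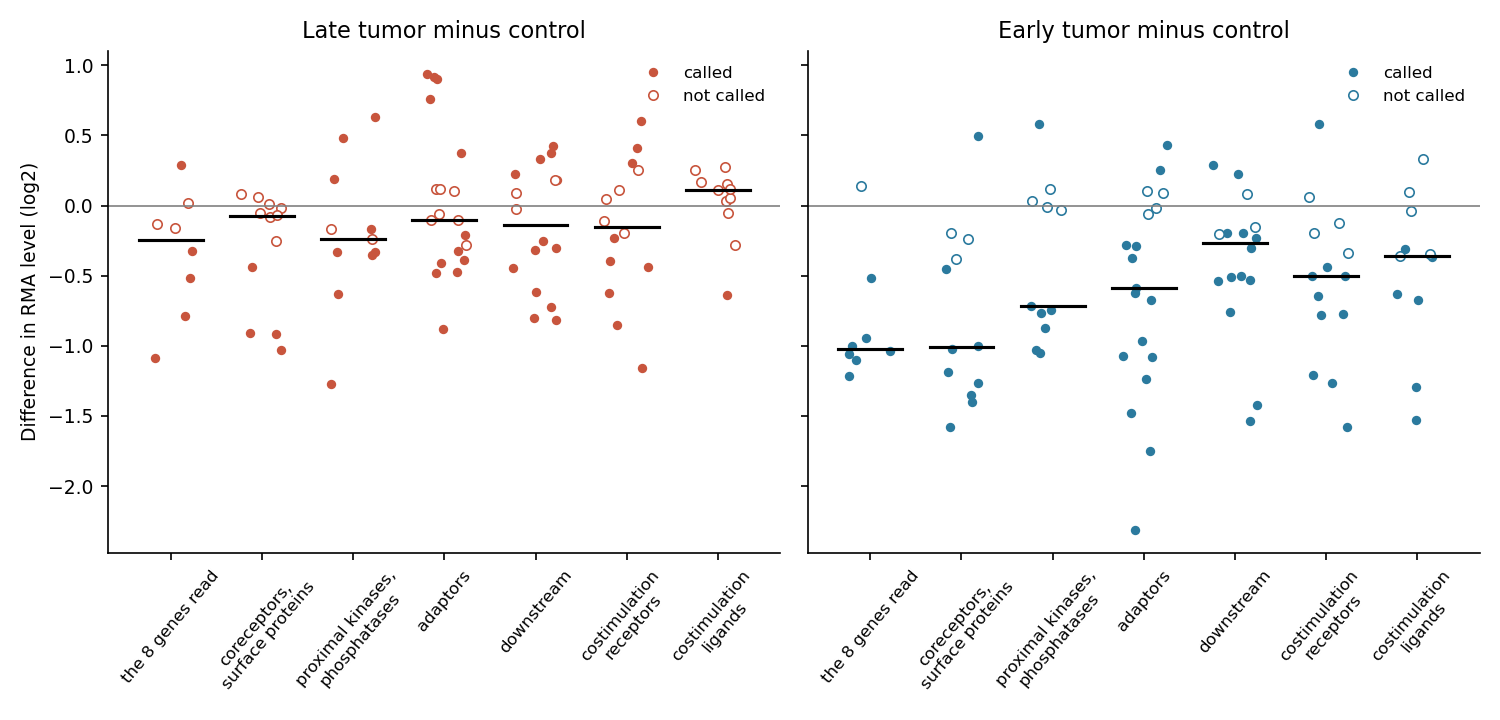
Difference from control arrays (log2) of every measured gene in the 8-gene set and 6 pathway lists, for late (left) and early (right) tumor arrays. Each point is a gene, filled where called, and black lines are list medians, which run from −0.24 to 0.11 in late and from −1.02 to −0.27 in early arrays.

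Validation tumor array 19 differed from the rest in these genes. Its mean over the 8 genes was 11.7, where the other tumor arrays ran from 8.75 to 10.76 and controls reached 10.8. Cd3d read 12.9, Cd2 12.8, Cd3g 12.5, Cd3e 12.1, Lat 11.6, Cd28 10.7, Zap70 10.6 and Cd247 10.4. Cd8a (12.4) and Cd8b1 (12.2) were the highest of 93 arrays, and Cd4 (5.46) was the lowest, below a control range of 7.62 to 10.4. All 8 most-alike genes were at their highest there, among them Trav9d-3 (13.3) and Trbv1 (13). They were chosen for their likeness over all 93 arrays, this one included, so their peak here is no separate observation.

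Not every T-cell gene was high on this array: Il7r (9.76) and Trat1 (1.64) were the lowest of all arrays, and Icos (6.62) was the second lowest. The means of its B-cell (6.30), monocyte (7.34), erythroid (6.94) and platelet (7.96) markers were the lowest of 93 arrays, and its NK-cell marker mean (8.58) was the highest. Myc read 12, with other tumor arrays between 4.46 and 9.77. Its actin difference was −0.7, inside the range of the controls. These genes beyond Cd4, Cd8a and Cd8b1 were chosen after the values were seen, and the labels give this array no phenotype of its own. Without it, 4 genes were again called lower and 1 higher in late arrays, with Cd2 at −1.14 (adjusted p = 5.82e-17), Cd3e at −0.54 (adjusted p = 1.44e-08) and Cd3g at −0.36 (adjusted p = 0.0177).

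The cohorts were compared within each set. All 8 genes were lower in validation than in training controls, by values from −0.49 (Cd3g) to −0.23 (Zap70), and 0 were called by limma, as were 0 of all probe sets (1308 at an unadjusted p under 0.05). The late difference was less negative or more positive in the validation cohort for all 8 genes, by 0.23 (Cd3e) to 0.62 (Cd247). This interaction was called for 0 of 8 genes and 0 of all probe sets, with Cd3g (0.0316) and Cd247 (0.0465) under 0.05 before adjustment among 990 probe sets. The early interaction was called for 0 of 8 genes, against 145 of all probe sets and 5618 before adjustment. Cd2 and Cd3e were called lower in late arrays in each cohort alone (Cd2 −1.23 in training and −0.94 in validation, Cd3e −0.63 and −0.40). Cd3d, Cd3g, Cd247, Lat, Cd28 and Cd2 were called lower in early arrays in each cohort alone.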

How the data were processed

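Expression was measured in 93 blood leukocyte samples, 1 array each, on Affymetrix mouse arrays after NuGEN Ovation amplification. The deposited values are on a log2 scale and come from RMA as run by the authors (background correction, quantile normalization, median polish), in a version not given in the sources used here. Whether the deposited log2 values include the study's standardization on control probe sets is not stated. Values carry 3 significant digits, so they move in steps of 0.01 below 10 and 0.1 from 10. Arrays give no counts, so their number limits the precision. The labels name no animals, so p-values measure the spread between arrays, which may be partly technical. No 2 arrays held identical values.

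Of 45101 probe sets, 64 controls were left out, and 34945 of the other 45037 have a single gene symbol in the platform annotation. Control, late and early arrays were compared in a single fit with cohort as covariate, by limma 3.58.1 (lmFit, eBayes with trend) in R 4.3.3, two-sided, with Benjamini-Hochberg adjustment. The script was tested on simulated data. Correlations were computed on values centred within cohort, with 100000 resamples.

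The genes and lists were chosen with earlier results of these data known. Named genes are the members, up to 4 per pathway list with the smallest p against control, Cd4, Cd8a, Cd8b1, and the 8 most alike genes. Alternatives were other controls, single cohorts, no cohort term, no trend, array weights, a filter on dim probe sets, centring, the actin difference, control probe set components, a replicate block, the mean of probe sets and arrays left out. Leaving out late arrays low in the actin difference or in platelet markers, or validation tumor array 19, and the platelet marker correlations, were chosen after seeing the data. The study's sparse ANOVA and factor models were not rebuilt.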

Additional observations from a re-analysis of the deposited data

How the results depend on the processing

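In early arrays, 7 of the 8 genes were called lower, and 6 with disjoint controls (late arrays against training controls, early against validation controls) and in the validation cohort alone. The other alternatives gave 7 there, and all gave 0 higher. Leaving out each early array in turn gave 7 lower and 0 higher in early arrays, 4 lower and 1 higher in late arrays, and 1 lower and 5 higher between late and early arrays. With the first 3 components of the control probe sets as covariates, 0 genes were called lower and 0 higher in late arrays, and 0 lower and 1 higher between late and early arrays. The control probe sets include dap, which separates late arrays from controls. Calls over all 45037 probe sets fell too, to 3244 lower and 5010 higher in late arrays. Between late and early arrays they fell from 18479 lower and 12140 higher to 6330 and 7292. The late count of lower genes was 2 in the validation cohort alone, and the late count of higher genes was 0 with disjoint controls, in the training cohort alone and with the replicate block. Between the tumor sets, the count of higher genes was 3 with the actin difference and 2 with the replicate block. The label numbers pair control and tumor arrays by number alone: over 28 pairs, deviations from group means had r from −0.59 to 0.36 (median −0.0087, 10 over 0.1), so the block was not a pairing. Over the 8 genes and 3 comparisons, 653 of 696 alternative values kept direction and side of the threshold, 21 lost the call, 4 gained it and 18 changed sign. The causes were not tested.

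Values against control that changed sign in late arrays with the control components were Cd3d 0.32, Cd3e 0.010, Cd3g 0.40, Cd247 0.78, Lat −0.21, Cd28 0.17, Cd27 0.59, Ubash3a 0.21, Grap 0.21, Dgkz −0.45, Ppp3cb 0.091, Cd86 −0.31 and Cd8b1 0.80, and in early arrays Vav1 0.020. Between late and early arrays they were Cd2 0.46, Ptprcap 0.29, Ubash3a 1.06, Ppp3ca −0.23, Ppp3cb 0.33, Cd40 −0.62, Cd86 −0.15, Cd4 −0.068, Cd8a 0.14 and Btla −0.77. In the validation cohort alone, late values were Cd3d 0.078, Cd247 0.15, Cd7 0.052, Grap 0.031, Cd4 0.071, Cd8b1 0.012 and Ptprc −0.0089, and Btla between late and early arrays −0.064. Leaving out each early array in turn, Btla between late and early arrays ran from −0.0055 (without early training tumor 5) to 0.20. The late value of Zap70, near 0, was −0.094 with disjoint controls, −0.16 in the training cohort, −0.080 with array weights, −0.34 with the replicate block, −0.0026 without the late arrays low in the actin difference, −0.0072 without those low in platelet markers and −0.030 without validation tumor array 19. With the block Lat was −0.021 and Dgkz −0.15 in late arrays. Cd4 was 0.011 without the late arrays low in platelet markers. With the mean of all probe sets, Ptprc in late arrays was −0.079, Nfatc3 in early arrays −0.0078, and between late and early arrays Cd247 −0.0018, Ubash3a 0.50 and Cd8a 0.13. Nfatc3 in early arrays was −0.00088 with the actin difference.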
